A study of Mus musculus with 6 samples.

Results

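The urea cycle and amino acid catabolism genes are 38 genes whose products break down amino acids in the liver and turn the released nitrogen into urea. They were followed in livers of Nrf2 knockout and wild-type mice through every probe set annotated to exactly 1 gene symbol among them. That gave 55 of the 45037 non-control probe sets, and 35 of the 18193 genes with a probe set. Acmsd and Tdh were not analysed here, and the probe sets of Gcat carry the symbol Galr3 as well and stood outside the rule. The knockout group comprised 3 arrays of liver RNA from Nrf2-deficient mice, and the wild-type group 3 arrays from Nrf2 wild-type mice. All mice were of the strain labelled C57B/SV129 and 10 weeks old. RNA of 3 animals was pooled for each array. The labels name no injury, diet or treatment in either group. Pooling hides the spread between animals. Whether pools shared animals is not stated in the labels, so that p-values here speak only to the spread from pool to pool.

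The Nfe2l2 gene encodes Nrf2, which switches on detoxification genes through a short DNA element, the antioxidant response element. The urea cycle runs partly in mitochondria and partly in the cytosol of hepatocytes, mainly those around the portal vein. Aminotransferases and glutamate dehydrogenase pass amino acid nitrogen to ammonia and aspartate, the nitrogen donors of urea, while separate enzyme chains degrade the carbon skeletons. Many of these genes are known to be induced by glucagon, glucocorticoids and a protein-rich diet.

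No gene of the urea cycle or of amino acid breakdown passed the test, and the differences were small. Of the 35 genes, all had a probe set bright enough to be tested, with a mean log2 value at or above the median of all probe sets. A gene is given by its brightest tested probe set, and limma was fitted over all 22519 tested probe sets with Benjamini-Hochberg adjustment. None of the 35 passed an adjusted p of 0.05, where 0.144% of the 11102 tested genes did, and the smallest adjusted p was 0.568. An unadjusted p under 0.05 was reached by 2 of the 35, against 8.22% of all tested genes. Both were higher in the knockout, as were 4.07% of all tested genes at that threshold, and 0 were lower, where 4.15% of all were. The knockout and wild-type pools did not overlap for 3 of the 35, against 13.9% of all tested genes. The knockout was the higher one for all 3, where this held for 7.38% of all tested genes, and the lower one for 0, where it held for 6.55%.

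The intervals of the differences excluded large changes for most of these genes. Log2 differences, knockout minus wild type, ran from -0.22 for Prodh to 0.38 for Got1, and 31 of the 35 were smaller than 0.25 in size. The 95% interval of the difference lay within a 2-fold change in either direction for 34 of the 35, with Got1 the exception. It lay within a 1.5-fold change for 30. Standard errors ran from 0.055 for Cps1 to 0.29 for Got1, with a median of 0.097. By comparison, Nfe2l2 itself, the targeted gene, was 49.8-fold lower in the knockout (limma adjusted p = 2.22e-06), at 5.74, 7.40 and 6.90 deposited intensity units in the knockout pools, against 696, 598 and 625 in the wild-type pools. The values at that probe set fit the genotype label of each of the 6 arrays. A dimmer Nfe2l2 probe set did not pass, at 0.14 log2 (adjusted p = 0.925).

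On balance the 35 genes sat slightly higher in the knockout, but that balance depended on a single pool, and the counts also on the scaling. The count was 24 higher and 11 lower. Their median difference was 0.035 log2, against 0.0061 over all tested genes. Leaving out knockout pool 2 left 17 higher and 18 lower, and the median was -0.0069, against 0.0030 over all tested genes. With knockout pool 3 left out, 27 were higher and 8 lower, and the median was 0.060, against 0.018. Centring arrays on their medians, in place of quantile normalization, left 18 higher and 17 lower, and the median was then 0.0093. The median over all tested genes moved down as well with that centring, to -0.030, so the 35 genes still sat above it. The median size of the difference, regardless of sign, was 0.079 for the 35 genes and 0.13 for all tested genes. These sizes were not matched for brightness, on which the spread can depend. Wild-type means of the 35 ran from 7.68 log2 for Ass1 to 13.2 for Cps1, while the filter for all tested genes stood at 4.48.

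**Figure D1:**
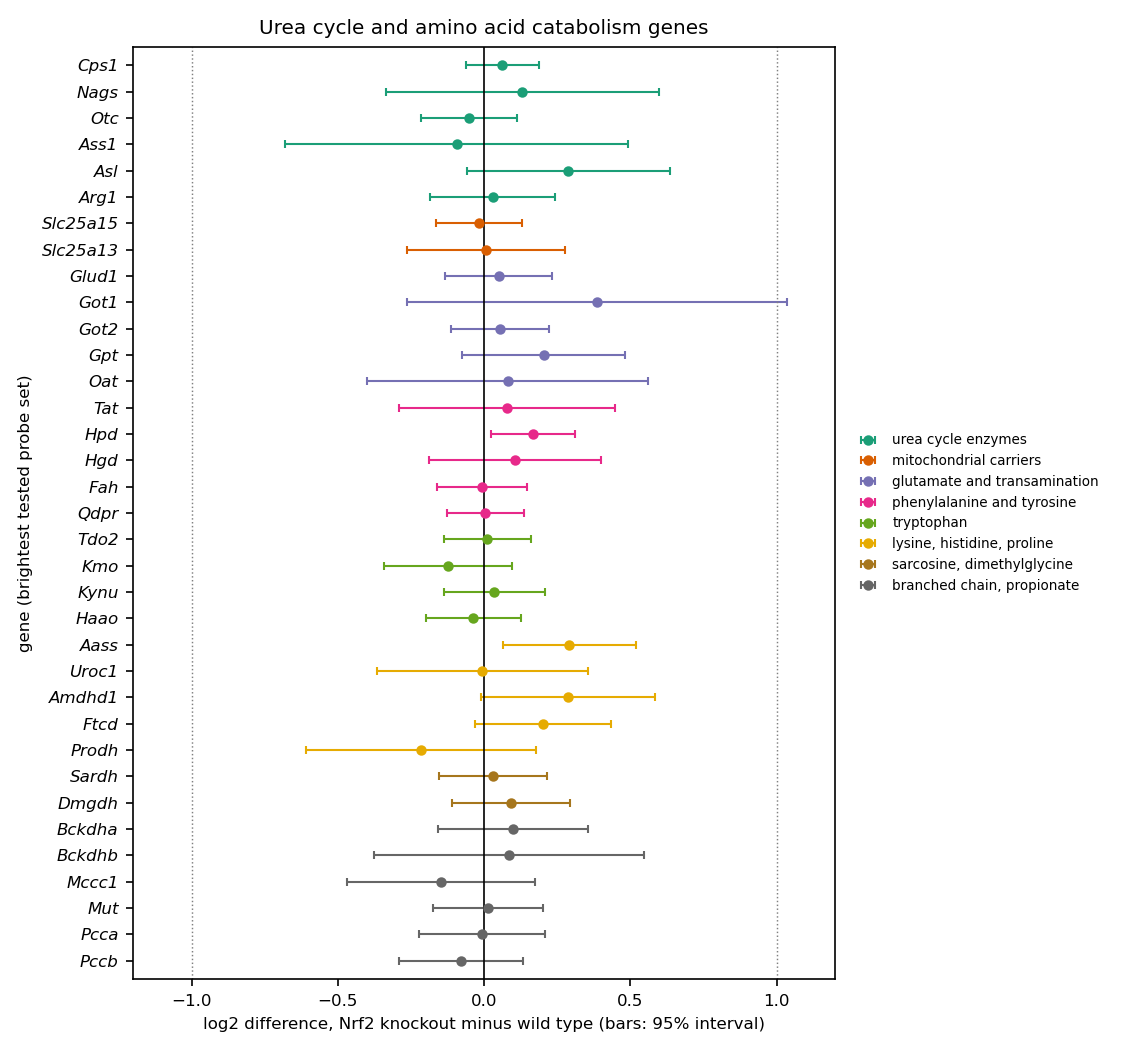
Log2 difference, Nrf2 knockout minus wild type, of the 35 tested genes, with 3 pools per genotype. Points are estimates from limma on quantile-normalized values, bars are 95% intervals, colours mark the pathway, and dotted lines mark a 2-fold change. The interval of Got1 alone crosses a dotted line, and those of Aass and Hpd alone leave out 0.

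The bases upstream of these genes were searched for the core of the antioxidant response element, TGACNNNGC, on both strands, because that element is what Nrf2 binds. RefSeq windows of assembly GRCm38.p6, from 250 bases before to 50 bases after each start, were matched by symbol for 29 of the 35 genes. Windows were not matched for Cps1, Asl, Arg1, Gpt, Kynu and Mut. The core was present for 3 of the 29, 10.3%, against 14% of all 27025 genes with a window. The 3 were Prodh, Bckdhb and Tdo2. They are printed below beside Me1, the malic enzyme gene, chosen after its values were seen because it carries the core and fell 3.43-fold in the knockout (limma adjusted p = 0.00169). Hpd and Aass, the genes with the smallest p-values, follow with the 100 bases before their start. Each is given 5′ to 3′ on the strand of its gene, with matches to the core in capitals.
Prodh, chr16:18089342-18089415, minus strand: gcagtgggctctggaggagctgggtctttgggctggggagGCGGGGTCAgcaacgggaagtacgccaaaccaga
Bckdhb, chr9:83924887-83925048, plus strand: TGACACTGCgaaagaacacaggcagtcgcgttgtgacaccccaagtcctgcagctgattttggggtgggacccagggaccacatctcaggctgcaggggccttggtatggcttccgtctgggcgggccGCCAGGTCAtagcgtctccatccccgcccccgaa
Tdo2, chr3:81975719-81975774, minus strand: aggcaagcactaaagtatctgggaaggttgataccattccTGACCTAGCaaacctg
Me1, chr9:86695905-86695960, minus strand: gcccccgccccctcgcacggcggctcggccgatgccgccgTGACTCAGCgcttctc
Hpd, chr5:123182724-123182823, minus strand: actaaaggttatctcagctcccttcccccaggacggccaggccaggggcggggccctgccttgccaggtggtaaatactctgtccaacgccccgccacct
Aass, chr6:23132987-23133086, minus strand: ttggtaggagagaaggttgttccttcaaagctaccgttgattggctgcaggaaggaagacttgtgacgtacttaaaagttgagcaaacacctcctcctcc
The cores of Tdo2 and Me1 began at base -6, counted from the start. Bckdhb held the core at bases -250 and -122 of the first of its windows, the second match reading on the opposite strand. In Prodh it lay at base -185, also on the opposite strand. A match is a description of letters, and a window without one says only that these letters are not in it.

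None of the 3 genes with the core passed. Me1 had normalized intensities of 730.2, 749 and 723 in the knockout pools, against 2958, 2004 and 2722 in the wild-type pools. Normalized intensity here is the quantile-normalized value turned back to the linear scale. Prodh differed by -0.22 ± 0.17 log2 (SE, n = 3 per genotype, adjusted p = 0.814), Bckdhb by 0.085 ± 0.20 (0.955) and Tdo2 by 0.011 ± 0.065 (0.982). The 95% interval of Tdo2 ran from -0.14 to 0.16, that of Bckdhb from -0.38 to 0.55 and that of Prodh from -0.61 to 0.18. Me1 was chosen because it fell, by 1.78 log2, so the contrast with it says nothing about the core.

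The urea cycle enzymes came first in the comparison by role, and none of the 6 passed. In the knockout 4 were higher and 2 lower. Their median was 0.045 log2. Leaving out knockout pool 2 put 3 on each side, with the median at 0.0034, and leaving out wild-type pool 1 also put 3 on each side. Other settings went the opposite way, to 5 higher and 1 lower. These were array weights (median 0.089), knockout pool 3 left out (0.070) and wild-type pool 3 left out (0.066). Cps1 makes carbamoyl phosphate from ammonia in mitochondria and is the entry step of the cycle. It stood at 10010.2, 10127 and 10239.5 in the knockout pools, against 9617, 9662 and 9819 in the wild-type pools. Each knockout pool was thus above each wild-type pool, but the difference was only 0.062 ± 0.055 log2 (adjusted p = 0.835), and its interval ran from -0.064 to 0.19. Nags makes N-acetylglutamate, the obligate activator of the Cps1 enzyme. Its values were 476, 534 and 300.4 in the knockout pools, against 399, 432 and 336 in the wild-type pools, overlapping on both sides, with a difference of 0.13 ± 0.20 (adjusted p = 0.923).

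Otc, which joins carbamoyl phosphate to ornithine to give citrulline, had 5931, 5259 and 5382 in the knockout pools, against 5846, 5816 and 5502 in the wild-type pools. The groups overlapped, at -0.052 ± 0.072 log2 (adjusted p = 0.910). Another bright Otc probe set was at -0.14 and a dimmer one at 0.031, neither passing. Asl splits argininosuccinate into arginine and fumarate. It measured 2453, 3351 and 2094 in the knockout pools, against 2132, 2172 and 2039 in the wild-type pools, so knockout pool 2 stood far above the other 5 arrays. The difference was 0.29 ± 0.15 (adjusted p = 0.715), and 0.10 without that pool. Arg1, the arginase that releases urea and regenerates ornithine, showed the same pool on top, with 7232, 8868 and 7095 in the knockout, against 7203, 7549 and 7883 in the wild type. Its difference was 0.029 ± 0.094 (adjusted p = 0.967).

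Ass1, which couples citrulline to aspartate, was represented by a single probe set annotated to it alone. That probe set read 262, 158 and 159 in the knockout pools, against 147, 199 and 276 in the wild-type pools, spread alike in both genotypes, with a difference of -0.094 ± 0.26 (adjusted p = 0.960). A separate probe set, annotated to both Gm5424 and Ass1, is not attributed to either gene here. It read 9205, 9617 and 8948 in the knockout pools, against 8149, 8301 and 7919 in the wild-type pools. Its groups did not overlap, and the difference was 0.19 ± 0.061 (adjusted p = 0.540). The unadjusted limma p of the shared probe set was 0.0134. That lay below the 0.0183 of Aass, the gene with the smallest p among those followed here. The probe set of Ass1 alone was far dimmer than the shared one, and its values overlapped between the genotypes. The signs of these probe sets were opposite, and neither passed. Ass1 was counted as lower among the urea cycle enzymes through the dimmer probe set only.

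Both mitochondrial carriers that serve the cycle had differences near 0. Slc25a15, which exchanges ornithine for citrulline across the inner membrane, lay between 3783 and 3961 in the knockout pools and, in the wild-type pools, between 3818 and 3989. The difference was -0.018 ± 0.064 log2, with an interval from -0.16 to 0.13. Slc25a13, or citrin, exports aspartate from mitochondria. It was at 0.0051 ± 0.12, with 1299 to 1548 in the knockout, against 1226 to 1632 in the wild type.

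All 5 genes that move nitrogen through glutamate were on the higher side in the knockout. None passed, and the median was 0.080 log2. Without knockout pool 2, knockout pool 3 or wild-type pool 3, 4 of the 5 were higher, and with the mean of each gene's probe sets 3 were. Got1, the cytosolic aspartate aminotransferase, had the widest spread of all 35 genes. Its values were 1815, 3188 and 1736 in the knockout pools, against 1222, 1515 and 2433 in the wild-type pools. The top pool of each genotype stood apart from the other two, and the difference of 0.38 ± 0.29 (adjusted p = 0.799) became 0.10 without knockout pool 2. Gpt, the alanine aminotransferase gene, read 1483, 1741 and 1229 in the knockout pools, against 1277, 1305 and 1244 in the wild-type pools, a difference of 0.20 ± 0.12 (adjusted p = 0.745) that became 0.082 without knockout pool 2. A dim second Gpt probe set went the other way, at -0.54 ± 0.24 (adjusted p = 0.658).

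The remaining members of that group were steadier, Oat apart. Glud1, glutamate dehydrogenase, was at 0.049 ± 0.081 and Got2, the mitochondrial aspartate aminotransferase, at 0.054 ± 0.073. A second Glud1 probe set was at 0.018. Other tested Got2 probe sets were at 0.084 ± 0.083 and, for a dim one, at -0.35 ± 0.21 (limma adjusted p = 0.744). At that dim one every knockout pool lay below every wild-type pool. Oat, ornithine aminotransferase, was at 0.080 ± 0.21, with 2993, 5466 and 3351 in the knockout pools, against 3578, 4200.0 and 3087 in the wild-type pools. Here too knockout pool 2 was the highest of the 6, while knockout pool 1 was the lowest.

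Among the genes of phenylalanine and tyrosine breakdown, 4 of 5 were higher in the knockout, with a median of 0.079 log2 and none passing. Leaving out knockout pool 2 turned this to 2 higher and 3 lower, with the median at -0.0069. With knockout pool 3 left out instead, all 5 were higher, with the median at 0.18. Hpd makes homogentisate from 4-hydroxyphenylpyruvate and had the second smallest p of all 35 genes. It measured 9405, 9314 and 9024 in the knockout pools, against 8232, 8649 and 7858 in the wild-type pools. The groups did not overlap, and the difference was 0.17 ± 0.063 (limma adjusted p = 0.607). Its 95% interval, which takes no account of the number of genes tested, ran from 0.023 to 0.31. Over the alternatives its adjusted p ran from 0.481 to 0.900. The unadjusted limma p of Hpd, 0.028, was 0.19 with median centring, 0.082 with no filter and 0.16 with no intensity trend. It stayed under 0.05 with either other pseudocount and with the 70th percentile filter. Tat, the tyrosine aminotransferase that starts the pathway and a classical glucocorticoid target, was at 0.079 ± 0.16. Its values were 5816, 6908 and 4601 in the knockout pools, against 4546, 5382 and 6411 in the wild-type pools, a wide spread within both genotypes.

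The other genes of that pathway had differences of 0.11 or less in size. Hgd, which opens the ring of homogentisate, was at 0.11 ± 0.13, with knockout pool 2 again highest at 6516. Fah, the last enzyme of the chain, was at -0.0080 ± 0.067. Qdpr, which regenerates the tetrahydrobiopterin used by phenylalanine hydroxylase, was at 0.0035 ± 0.058, between 7730.3 and 7815 in knockout pools and, in wild-type pools, between 7573 and 7919. Its interval, from -0.13 to 0.14, was among the narrowest of the 35.

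Of the kynurenine pathway genes, which degrade tryptophan, 2 were higher and 2 lower. None passed, and the median was -0.013 log2. Tdo2, the dioxygenase that opens the tryptophan ring, was measured by 3 probe sets, at log2 differences of 0.011, 0.039 and 0.0080. Kmo, the kynurenine hydroxylase, read 1588, 1320.5 and 1345 in the knockout pools, against 1452, 1552 and 1621 in the wild-type pools. The groups overlapped through knockout pool 1, and the difference was -0.12 ± 0.097 (adjusted p = 0.809). Kynu, the kynureninase, was at 0.035 ± 0.075, and Haao, which makes the precursor of quinolinate, was at -0.037 ± 0.071.

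The genes for lysine, histidine and proline had the highest median of the role groups, 0.20 log2 over 5 genes, of which 3 were higher and 2 lower. None passed. Aass, the bifunctional enzyme that begins lysine degradation, had the smallest p of all 35. Its values were 2603, 3224 and 2660.2 in the knockout pools, against 2306, 2154 and 2449 in the wild-type pools. The groups did not overlap, and the difference was 0.29 ± 0.10 (limma adjusted p = 0.568). Over the alternatives its adjusted p ran from 0.436 to 0.916, and without knockout pool 2 the difference was 0.19. Amdhd1, the imidazolonepropionase of histidine breakdown, read 1792, 2225 and 1525 in the knockout pools, against 1573, 1461 and 1455 in the wild-type pools. Only knockout pool 3 lay within the wild-type range, and the difference was 0.29 ± 0.13 (adjusted p = 0.661), and 0.14 without knockout pool 2. A second Amdhd1 probe set was at 0.24.

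Ftcd transfers the one-carbon unit from formiminoglutamate to tetrahydrofolate, at the end of the same pathway. It read 3211, 3438 and 2828 in the knockout pools, against 3038, 2719 and 2493 in the wild-type pools, a difference of 0.20 ± 0.10 (adjusted p = 0.701). Uroc1, urocanase, which acts just before Amdhd1, was at -0.0060 ± 0.16, and its second probe set was at 0.076. Prodh, proline dehydrogenase, had the most negative difference of the 35, with 838, 734 and 735 in the knockout pools, against 999.5, 1077 and 662 in the wild-type pools. Wild-type pool 3 lay below every knockout pool, and without it the difference was -0.43. Without wild-type pool 2 it was -0.083.

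Dmgdh and Sardh, whose enzymes demethylate dimethylglycine and sarcosine in mitochondria, were both higher without passing. Dmgdh had 1851, 1772 and 1566 in the knockout pools, against 1554, 1695 and 1614 in the wild-type pools, overlapping, at 0.091 ± 0.089 log2 (adjusted p = 0.855). Sardh was at 0.029 ± 0.081, with 0.048 at a second probe set.

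Genes for branched-chain amino acids and propionate were split evenly, 3 higher and 3 lower. Their median was 0.0029 log2, and none passed. Without knockout pool 2, or without wild-type pool 3, 1 was higher and 5 were lower. Without knockout pool 3, 4 were higher and 2 lower. Bckdha and Bckdhb, subunits of the dehydrogenase that commits branched-chain keto acids to oxidation, were at 0.098 ± 0.11 and 0.085 ± 0.20. Mccc1, a subunit of the leucine pathway carboxylase, read 428, 464 and 364 in the knockout pools, against 522, 485 and 388 in the wild-type pools. It was at -0.15 ± 0.14 (adjusted p = 0.852), and a dim second probe set was at 0.063. Pcca and Pccb, the subunits of propionyl-CoA carboxylase, were at -0.0073 ± 0.094 and -0.079 ± 0.094. Mut, the methylmalonyl-CoA mutase that follows it, was at 0.013 ± 0.082, with 0.061 at a second probe set.

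**Figure D2:**
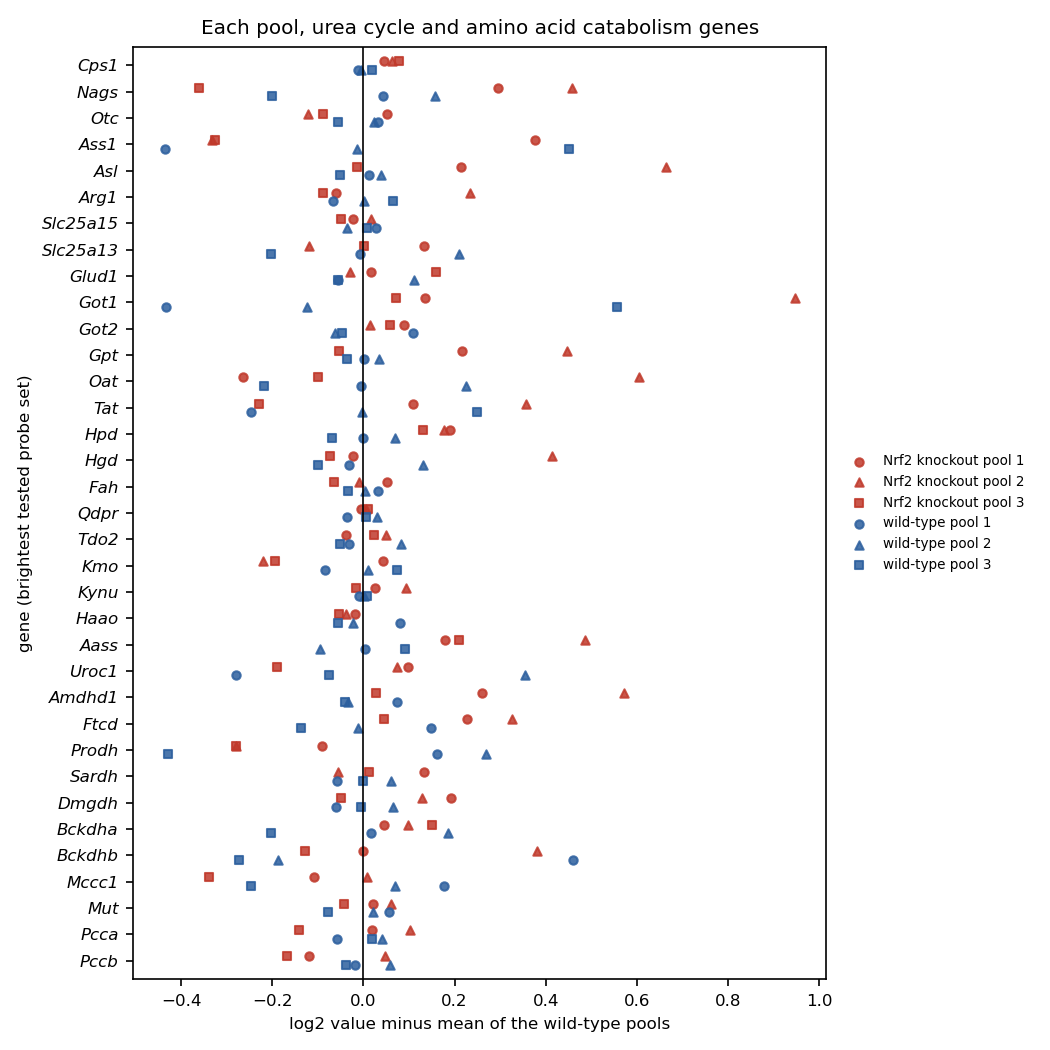
Value of each of the 35 genes in each pool, as the log2 value minus the mean of the 3 wild-type pools. Red symbols, drawn just above blue ones, are Nrf2 knockout pools, blue symbols are wild-type pools, and the shape gives the pool number. Knockout pool 2 lies furthest to the right for Got1, followed by Asl, Oat, Amdhd1, Aass, Nags, Gpt and Hgd.

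Several probe sets of the same gene did not always share a sign. Of 14 genes with several tested probe sets, 8 had all of them on the same side. The 6 with mixed signs were Otc, Slc25a15, Got2, Gpt, Uroc1 and Mccc1, chosen after their values were seen, and no probe set of theirs passed. Over all 52 tested probe sets of the 35 genes 0 passed by limma, against 0.142% of all tested probe sets, and 2 had an unadjusted p under 0.05, those of Aass and Hpd, where 7.63% of all tested probe sets did.

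The highest and lowest values were spread unevenly over the 6 pools. Knockout pool 2 was the highest of the 6 pools for 14 of the 35 genes, or 40%, while it was the highest for 23.5% of all tested genes. Wild-type pool 3 was the lowest for 12 of the 35, against 20.7% of all tested genes, and knockout pool 1 was the lowest for 1. The genes for which knockout pool 2 was highest were Asl, Arg1, Nags, Got1, Gpt, Oat, Tat, Hgd, Kynu, Aass, Amdhd1, Ftcd, Mut and Pcca. These shares describe 6 arrays, and genes measured on the same array are not independent.

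**Figure D3:**
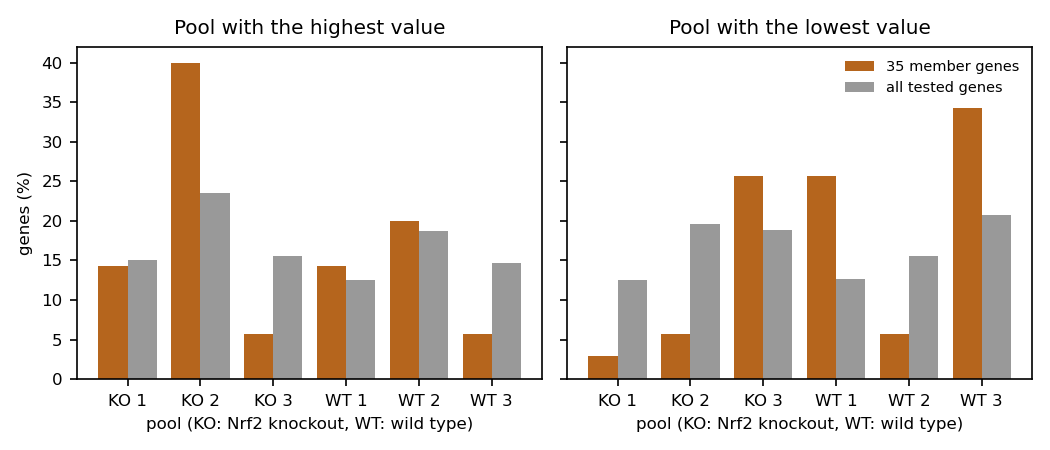
Share of genes, in percent, for which each pool had the highest value (left) or the lowest value (right), with Nrf2 knockout pools left of wild-type pools. Brown bars are the 35 genes and grey bars all 11102 tested genes. Knockout pool 2 was highest for 40% of the 35 genes and for 23.5% of all.

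Markers of cell types and RNA quality were read on the same arrays. The summed normalized intensity of the 5 measured hepatocyte markers was 63128 to 63756 in the knockout pools, against 60801 to 63993 in the wild-type pools, so the arrays held RNA of liver as labelled. The 6 stellate cell and fibroblast markers summed to 3099 to 3425 in the knockout, against 2800.2 to 3042 in the wild type, without overlap. All 6 were higher in the knockout and none passed. Taken singly, only 1 was without overlap, the dim Des, which ran from 5.22 to 31.8 over the pools. The bile duct markers Krt19 and Krt7 and the lymphocyte markers Cd3e and Cd79a were under the brightness filter, as were Adipoq, Cpa1 and Hba-a1. Sums of Kupffer cell, endothelial, bile duct, blood and pancreas or fat markers overlapped between the genotypes. Taken singly, 2 of the 5 endothelial markers were higher in the knockout without overlap, where this held for 7.38% of all tested genes. These were Kdr at 0.24 ± 0.12 log2 and Pecam1 at 0.27 ± 0.13, and neither passed. The ratio of 3′ to 5′ actin control signal was 1.97 ± 0.032 in the knockout, against 1.86 ± 0.083 in the wild type (SD, n = 3 each, exact two-sided permutation p = 0.1, the smallest that 3 against 3 can give). That of Gapdh was 0.767 ± 0.037 in knockout pools, against 0.760 ± 0.0061 in wild-type pools (exact permutation p = 0.9). The part of stellate and endothelial markers and of RNA quality in the values above was not tested. In these bulk samples, fewer cells of a type and less RNA per cell cannot be told apart.

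Neighbouring genes of the same metabolism gave the same count of 0 calls. Of 49 genes listed for other steps of amino acid breakdown 40 were tested, and 20 of those were higher and 20 lower. The median was -0.0055 log2. An unadjusted p under 0.05 was reached by 3 higher and 2 lower, where 4.07% and 4.15% of all tested genes reached it. Pools did not overlap for 5 higher and 3 lower, where this held for 7.38% and 6.55% of all. Aadat encodes the aminotransferase that acts on kynurenine and on the lysine intermediate aminoadipate. It had the largest difference of these genes, with 847, 719 and 705 in the knockout pools, against 1129, 1190.4 and 1099 in the wild-type pools. Every knockout pool lay below every wild-type pool, at -0.59 ± 0.098 log2 (adjusted p = 0.0953). It passed when arrays were centred on their medians, at -0.63 (adjusted p = 0.0446), and its adjusted p over the alternatives ran from 0.0446 to 0.472. Aadat stands beside Kmo, Kynu and Aass in these pathways, and those were at -0.12, 0.035 and 0.29.

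Other genes of that list were higher in the knockout without passing. Gldc, of the glycine cleavage system, had 1218, 1313 and 1129.8 in the knockout pools, against 1022, 953 and 841 in the wild-type pools, at 0.38 ± 0.10 (adjusted p = 0.427). Slc25a12, a mitochondrial aspartate-glutamate carrier like Slc25a13, had 274, 247 and 257 in the knockout pools, against 186, 202 and 208 in the wild-type pools, at 0.38 ± 0.11 (adjusted p = 0.455). Neither gene's pools overlapped between the genotypes. Agxt, which transaminates glyoxylate with alanine, was at 0.46 ± 0.17 (adjusted p = 0.600), with knockout pool 2 highest at 4087 and a difference of 0.24 without that pool.

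Amino acid uptake and glutamine genes numbered 9, of which 4 were higher, 5 were lower and none passed. Their median was -0.025 log2. The sodium-coupled transporter gene Slc38a4 was at 0.27 ± 0.11 and the cationic amino acid transporter gene Slc7a2 at 0.60 ± 0.32. Slc7a2 had 950.1, 2292 and 1356 in the knockout pools, against 671, 1026 and 1234 in the wild-type pools, once more with knockout pool 2 on top. The difference became 0.26 without that pool and 0.35 without wild-type pool 1. The genes of glutamine synthetase (Glul) and of the glutamate transporter Slc1a2 were at -0.35 ± 0.21 and -0.83 ± 0.40. Glul was lowest in knockout pool 2 and differed by -0.090 without it. Slc1a2 read 80.3, 71.4 and 245 in the knockout pools, against 171, 239 and 207 in the wild-type pools. Its adjusted p was 0.682, but 0.0333 without knockout pool 3, which lay above all 3 wild-type pools while knockout pools 1 and 2 lay below them. Over all alternatives it ran from 0.0333 to 0.937.

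Among 10 regulators of this metabolism 4 were higher and 6 lower. None passed, and the median was -0.080 log2. Cebpb, a transcription factor of the family that acts on urea cycle and aminotransferase genes, had 616, 369 and 995 in the knockout pools, against 1117, 1138 and 1818 in the wild-type pools. The groups did not overlap, and the difference was -1.11 ± 0.33 (adjusted p = 0.489). Knockout pool 2, highest for many of the enzymes, had the lowest Cebpb value of the 6. That pool was also the lowest for Gcgr, and for Cebpa and Hnf4a, which are named after their values were seen. The other regulators were lowest in other pools, and any relation to the enzymes was not tested. The glucagon receptor gene Gcgr had 780.2, 623 and 729 in the knockout, against 841, 869.5 and 831 in the wild type, also without overlap, at -0.26 ± 0.10 (adjusted p = 0.616). The fatty acid receptor gene Ppara was at -0.25 ± 0.19, or -0.032 without knockout pool 3, and the glucocorticoid receptor gene Nr3c1 at 0.12 ± 0.092.

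**Figure D4:**
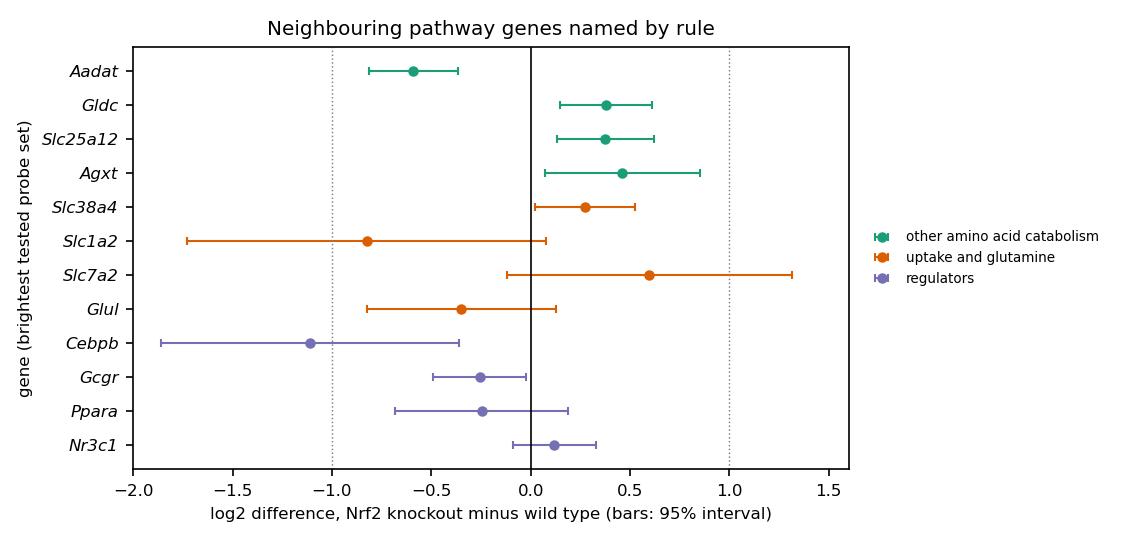
Log2 difference, Nrf2 knockout minus wild type, of 12 neighbouring pathway genes, the 4 with the smallest p of each list. Points and bars are limma estimates with 95% intervals (3 pools per genotype), and dotted lines mark a 2-fold change. Aadat and Cebpb lie furthest from 0 among the genes whose interval leaves it out.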

How the data were processed

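The deposited values are probe set intensities of 1-colour, biotin-labelled Affymetrix mouse arrays on a linear scale, from 0.0174 to 16555. Per the submitters' processing notes the software was GCOS 1.4. No source used here gives its signal algorithm or scaling. Trimmed by 2%, the mean intensity ran from 92.0 to 131 over the arrays. Values were taken as log2(intensity + 5.26), the 25th percentile of all values, and quantile normalized. Folds are on this scale. Without the 64 control probe sets, 22519 had a mean at or above the median (4.48 log2) and were tested. Symbols came from the platform annotation, updated through Entrez identifiers (34741 probe sets, GRCm38.p6). The annotation gave 1 gene for 34945 probe sets, several for 932 and none for 9160. The test was limma 3.58.1 under R 4.3.3 with intensity-trended eBayes, adjusted over all tested probe sets. The procedure was tested on simulated data with independent noise for each probe set, which held no spread shared within a pool.

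All urea cycle enzymes and their activator Nags, and the 12 genes with the smallest p, are given with every array's value. Single values of other members stand where their pathway is described, and neighbouring genes are the 4 with the smallest p of each list. The members and lists were chosen with earlier results of these data known. Alternatives were median centring, pseudocounts of 1.31 and 21.0, no filter, a stricter one (70th percentile), eBayes without the trend, array weights, a replicate block, each pool left out and probe sets averaged per gene. The number of arrays limits the precision.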

Additional observations from a re-analysis of the deposited data

How the results depend on the processing

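In each of the 14 alternatives that count probe sets, 0 probe sets of the urea cycle and amino acid catabolism genes passed by limma. The number of the 35 genes with an unadjusted p under 0.05 ran from 0 to 7. The 7 came without knockout pool 3, where 10.3% of all tested genes reached that threshold. The 0 came without knockout pool 2, against 5.83% of all, and without the intensity trend, against 6.96%. Over the whole table, 32 probe sets passed, but 20 unfiltered, 19 above the 70th percentile and 18 with no intensity trend. Median centring gave 41 and array weights 40. Leaving out a pool gave 18 to 29. Nfe2l2 passed in all 15 alternatives. The numbers 1 to 3 of the pools are not stated to mark anything shared, and deviations of same-numbered pools correlated at 0.129, 0.0451 and 0.248, so the pools were not treated as paired. With the replicate number as a block, 32 probe sets passed, 0 of them of these genes. Of the 35 genes 5 then had an unadjusted p under 0.05, beside 9.66% of all tested genes. Without the block it was 2, beside 8.22%. Of the 6 pools, 4 correlated best with their own number, a hint from the data and not the design.

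The sign of the difference depended on the setting for 22 of the 35 genes, and the cause was not tested. With median centring the log2 difference was -0.053 for Slc25a13, -0.0075 for Qdpr, -0.022 for Tdo2, -0.017 for Kynu, -0.023 for Sardh and -0.037 for Mut. With array weights it was 0.12 for Ass1, -0.0066 for Oat, 0.062 for Uroc1, -0.021 for Bckdhb and 0.012 for Pcca. With probe sets averaged per gene it was 0.017 for Slc25a15, -0.071 for Got2, -0.17 for Gpt and 0.035 for Uroc1, where dimmer probe sets of opposite sign entered the mean.

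Leaving out each pool in turn gave -0.033 to 0.38 for Nags, -0.33 to 0.13 for Ass1, -0.074 to 0.087 for Arg1 and -0.096 to 0.11 for Slc25a13. It gave -0.0057 to 0.11 for Glud1, -0.18 to 0.25 for Oat, -0.060 to 0.23 for Tat and -0.048 to 0.20 for Hgd. The ranges were -0.038 to 0.020 for Fah, -0.014 to 0.018 for Qdpr, -0.014 to 0.052 for Tdo2 and -0.066 to 0.0027 for Haao. They were -0.15 to 0.17 for Uroc1, -0.022 to 0.072 for Sardh, -0.0030 to 0.19 for Bckdha and -0.064 to 0.31 for Bckdhb. For Mut the range was -0.025 to 0.041 and for Pcca -0.062 to 0.060. The other 13 genes kept their sign in every alternative, Aass at 0.19 to 0.35 and Hpd at 0.13 to 0.20 without a pool.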
